A study of Mus musculus with 6 samples.

Results

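The genes described here are 35 members of the interferon response and of antigen presentation, read on Affymetrix whole-genome mouse arrays of muscle RNA. A gene was taken up where a probe set, a group of short probes designed against 1 transcript, carried its symbol alone as current name, or as an older synonym that is no other gene's current name. This found 56 probe sets for 33 of the 35 genes, out of 45037 probe sets tested for 18193 named genes. The array held no singly named probe set for Ifi44 or Isg15 in the annotation used here. Of the 33 genes, 21 reached an intensity of 16 in at least 1 group mean and 12 stayed below it in both, and these 12 are given apart.

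The arrays compared muscle of 3 mice labelled wild type (WT) with muscle of 3 mice labelled SIRT6KO (KO), all on the 129SvJ background, with 1 array per mouse. SIRT6 is an NAD-dependent deacylase that acts on chromatin. The sources used here name no age, particular muscle, allele or treatment. The question is which transcripts of muscle differ with the SIRT6 label. The p-values set the difference between the groups against the spread between mice within a group. The test, limma, draws the spread of each probe set toward that common to all probe sets.

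Interferons are secreted signals of infection and inflammation. Type I interferon binds its receptor and activates a complex that holds STAT2 and IRF9, which enters the nucleus and binds the interferon-stimulated response element (ISRE) in front of antiviral genes. Interferon gamma acts on the gamma-activated site (GAS), and through IRF1 and CIITA it also raises the genes by which cells show peptides to T cells. MHC class I molecules with beta-2-microglobulin are carried by nearly all nucleated cells, whereas MHC class II molecules are made mainly by macrophages, dendritic cells and B cells, and healthy muscle fibres make little of either.

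Members had mostly lower means in the KO-labelled arrays, with H2-Ab1 (-1.14) and Ifi35 (-0.88) farthest below WT on the log2(intensity + 16) scale, but no member passed the test over all probe sets. Of the 33 genes, each taken at its brightest probe set over the 6 arrays, 28 had a lower and 5 a higher KO mean, with a median change of -0.25 on that scale. Over all 18193 genes the median change was -0.02, and 53.2% had a lower KO mean. In limma, after Benjamini-Hochberg adjustment across the whole table, 0 of the 56 member probe sets passed an adjusted p of 0.05, against 4 of 45037 probe sets in all (0.00888%). The lowest adjusted p of a member was 0.325, at Ifi35. An unadjusted p under 0.05 was found for 11 member probe sets, all with a lower KO mean (4.99% of all probe sets) and none with a higher one (3.57% of all probe sets). Among the 33 genes 7 had an unadjusted p under 0.05 and a lower KO mean, where 6.29% of all genes did, and 0 had a higher one, where 3.54% did. In 7 genes all 3 KO-labelled arrays lay below all 3 WT-labelled ones (8.34% of all genes), and in 0 they lay above (4.51% of all genes).

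**Figure D1:**
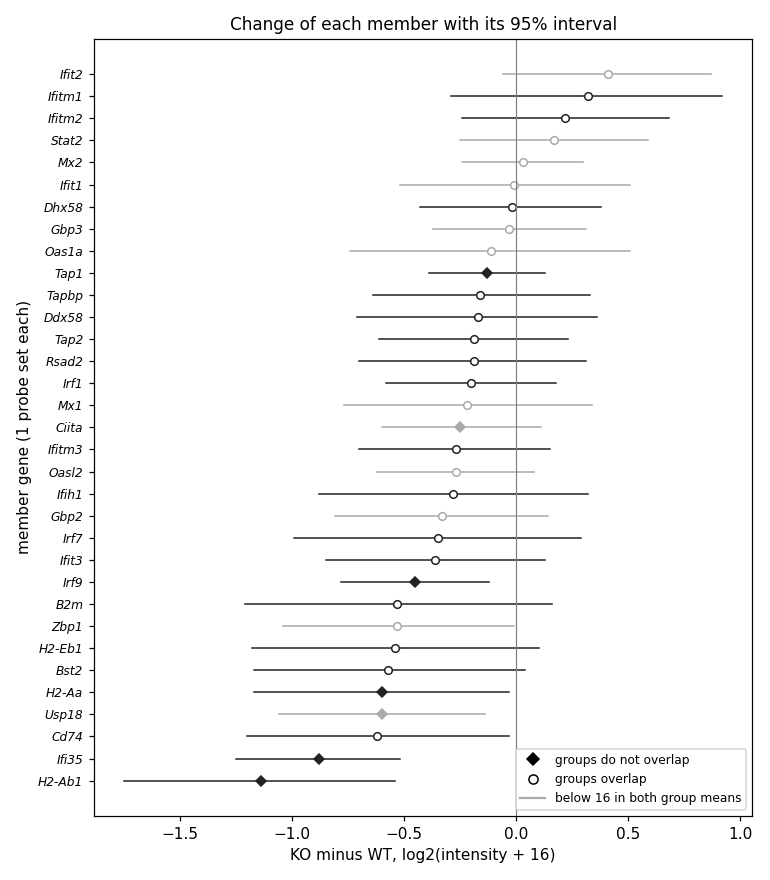
Change of each of the 33 measured members, as KO minus WT on the log2(intensity + 16) scale, with limma's 95% interval. Filled diamonds mark the 7 genes whose groups did not overlap, and grey marks the 12 genes below intensity 16 in both group means. H2-Ab1 (-1.14) and Ifi35 (-0.88) lie farthest left, and Ifit2 (0.41) lies farthest right.

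Facts of the arrays as a whole bear on every value here. Xist read 0.7 to 3.4 in the WT-labelled and 221.7 to 250.9 in the KO-labelled arrays at probe set 1427262_at, and the Y-linked gene Eif2s3y 44.5 to 77.1 and 1.1 to 4.1 at 1417210_at, so genotype and sex cannot be told apart. The 4 probe sets that passed in limma over the whole table included Xist at 1427262_at and 1436936_s_at (adjusted p = 0.000680 and 0.00401). The probe set of Sirt6 overlapped between the groups (15.1 to 23.2 and 13.7 to 22.6) and did not check the labels. WT replicate 1 was the brightest array, with a median intensity of 15 against 10.8 to 13.5 in the others and hybridization controls 1.93 times those of WT replicate 2. It held the highest value of 11 of the 21 members that reached 16. Without it the log2 change was -0.01 for Tapbp, -0.04 for Tap2, -0.05 for Ddx58, 0.06 for Dhx58, -0.15 for Ifitm3, -0.23 for Ifit3, 0.15 for Ifitm1 and 0.36 for Ifitm2, each over 1.5 times away from its value with all arrays or of the other sign. For B2m and H2-Aa it was -0.34. Without KO replicate 3 it was -0.05 for Irf7 and -0.02 for Ifih1, and without KO replicate 2 it was 0.07 for both Ifitm1 and Ifitm2. Log2 ratios of 3′ to 5′ control probe sets lay between -0.3 and -0.24 for Gapdh and between -0.49 and -0.18 for Actb, and a test between the groups gave little sign of a difference (p = 1 for both, exact two-sided permutation test, for which 0.1 is the smallest p possible here). Defining muscle genes such as Acta1 and Ckm were near the top of the scale in all 6 arrays. In bulk tissue, fewer cells of a type and less RNA per cell cannot be told apart.

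The stretches before the transcription start of 4 members with lower KO means are shown as examples: Ifi35, B2m, H2-Aa and H2-Eb1. They are not the 4 lowest members. Cd74, Usp18 and Bst2 lay farther below WT than B2m and are not shown, and H2-Ab1, the lowest, had no promoter in the sequences used. Each is the 150 bases upstream of the start, from RefSeq in build GRCm38.p6, and matches to a motif are in capitals.
Ifi35, chr11:101448262-101448411, plus strand: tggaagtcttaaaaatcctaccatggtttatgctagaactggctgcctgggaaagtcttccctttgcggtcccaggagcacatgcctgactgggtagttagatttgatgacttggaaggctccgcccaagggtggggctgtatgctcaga
B2m, chr2:122147537-122147686, plus strand: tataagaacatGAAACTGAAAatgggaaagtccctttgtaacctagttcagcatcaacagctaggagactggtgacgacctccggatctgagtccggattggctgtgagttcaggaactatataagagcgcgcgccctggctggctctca
H2-Aa, chr17:34287824-34287973, minus strand: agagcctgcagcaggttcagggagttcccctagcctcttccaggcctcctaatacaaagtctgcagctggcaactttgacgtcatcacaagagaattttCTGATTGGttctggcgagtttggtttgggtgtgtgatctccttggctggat
H2-Eb1, chr17:34305717-34305866, plus strand: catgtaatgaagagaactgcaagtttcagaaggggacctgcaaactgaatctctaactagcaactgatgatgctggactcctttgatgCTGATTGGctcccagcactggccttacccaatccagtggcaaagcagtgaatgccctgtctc

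Motifs were searched on both strands of the 250 bases before the start: GAAA, then NN, then GAAA for the ISRE, TTCNNNGAA for the GAS, whose letters read the same on both strands, and CTGATTGG for the Y box, a conserved element of MHC class II promoters. Overlapping matches were each counted, and motifs may overlap, as they do in Bst2. Of the 35 members 26 had a promoter in the table. An ISRE match was found in 11 of these (Ifit1, Ifit3, Isg15, Stat2, Oas1a, Rsad2, Bst2, Gbp2, Gbp3, Ifitm2 and B2m), where 2.98% of all 32851 promoters have one. A GAS match was found in Ifit2, Irf1, Oas1a and Bst2 (7.02% of all promoters), and a Y box match in H2-Aa, H2-Eb1 and, on the minus strand, Tap1 (3.83% of all promoters). In B2m the ISRE match runs from base -139 to -130 before the start, and the Y box matches lie at -51 to -44 in H2-Aa and -62 to -55 in H2-Eb1. The window of Ifi35 held none of the 3 motifs. A match describes these letters and is no measured binding site.

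Among the transcription factors of the pathway, Irf9 was the 1 member whose groups did not overlap. Irf9, the DNA-binding partner of STAT2, read 27.8, 20.2 and 21.9 in the WT-labelled arrays and 9.6, 14.3 and 14.4 in the KO-labelled ones. All 3 KO values were below intensity 16 and below every WT value. The fold, KO over WT on the same log2(intensity + 16) scale as all folds here, was 0.732, 95% interval 0.581 to 0.922 (adjusted p = 0.537). Irf1, an activator downstream of interferon gamma, read 109.8, 125.4 and 107.2 in WT and 90.7, 121.2 and 83.3 in KO. KO replicate 2 reached the WT range and the other two KO arrays lay below it (fold 0.872, adjusted p = 0.783). Irf7, which amplifies type I interferon output, read 20.5, 17.8 and 21.5 against 15.2, 22.6 and 2.4. Its lowest value was in KO replicate 3, while KO replicate 2 was above every WT array (adjusted p = 0.762). Stat2 itself was dim, at 5.5, 16.1 and 13.8 in WT and 14.6, 16.3 and 13.8 in KO. The groups of Stat2 overlapped, though WT replicate 1 lay below every KO array, and its second probe set stayed at 0.6 to 1.7.

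Sensors of foreign nucleic acid overlapped between the groups at every probe set. Ddx58, which encodes the RNA sensor RIG-I, read 48.1, 23.4 and 44.9 in WT and 23.8, 38.5 and 33.3 in KO at 1436562_at. WT replicate 2 was the lowest of the 6 arrays (fold 0.886, interval 0.609 to 1.29, adjusted p = 0.881). Ifih1, the sensor MDA5 of long double-stranded RNA, read 19.2, 11.4 and 18.4 against 13.1, 18.5 and 2.3. KO replicate 3 was low, and KO replicates 1 and 2 lay within the WT range (adjusted p = 0.808). Dhx58, the related helicase LGP2, was nearly level at 17.9 ± 3.46 in the WT-labelled and 17.5 ± 5.69 in the KO-labelled arrays (SD, n = 3 in each), with a fold of 0.983 and an interval of 0.743 to 1.30. Zbp1, a sensor of Z-form nucleic acid, stayed below 16 in both means, with 15.4, 17.4 and 9.9 against 3.2, 1.0 and 11.9. KO replicates 1 and 2 were below every WT array and KO replicate 3 was not (adjusted p = 0.580).

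Ifi35, an interferon-induced leucine zipper protein that pairs with NMI, was the member with the clearest separation. At its brightest probe set, 1445897_s_at, it read 125.7, 99.2 and 84.9 in WT and 47.6, 49.6 and 47.1 in KO. The KO-labelled arrays were tightly grouped and lay well below the lowest WT array. The mean was 103 ± 20.7 in WT and 48.1 ± 1.32 in KO (n = 3 each), with fold 0.543 and interval 0.421 to 0.700 (adjusted p = 0.422, unadjusted p = 0.000803). Probe set 1424617_at read 65.3, 45.9 and 48.5 against 5.2, 12.9 and 15.2. All 3 KO values were below 16 there and every WT value was well above it. Its fold was 0.389, interval 0.283 to 0.536 (adjusted p = 0.325).

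The remaining Ifi35 probe set, 1459151_x_at, read 55.4, 49.1 and 39.7 in WT and 26.8, 39.3 and 38.8 in KO. It too kept the groups apart, though narrowly (fold 0.794, adjusted p = 0.626). The suffixes _s_at and _x_at mark probes that can also match other transcripts, and 1424617_at carries neither. A refit to the 22518 probe sets above the median level called 0.351% of them and held 31 member probe sets. There 1424617_at was the 1 member probe set that passed, with KO lower (adjusted p = 0.0255). That filter used the mean of all arrays, which the high WT values raised, so the call is no separate support for a difference. Leaving out WT replicate 1, WT replicate 3 or KO replicate 2 ended that call, with adjusted p-values of 0.327, 0.133 and 0.15. Leaving out WT replicate 2, KO replicate 1 or KO replicate 3 did not, with adjusted p-values of 0.0448, 0.00730 and 0.000108.

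The classic antiviral effectors were dim in this muscle. Ifit3, of the IFIT family that binds viral RNA, read 26.9, 17.7 and 15.5 in WT and 6.2, 11.8 and 18.6 in KO. KO replicate 3 lay within the WT range and the other KO arrays below it (fold 0.777, adjusted p = 0.669). Rsad2, the radical enzyme viperin, read 31.8, 29.6 and 29.3 against 14.0, 36.5 and 25.8 at 1436058_at. Its WT values were nearly equal, while the KO values spread to both sides of them (fold 0.874, adjusted p = 0.850). Usp18, which removes ISG15 from proteins and damps the interferon receptor, stayed below 16 in both means. It read 17, 12.5 and 6.5 in WT and 0.5, 0.7 and 5.9 in KO, and every KO value was below every WT value (adjusted p = 0.541).

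The other members below 16 in both group means were Ifit1, Ifit2, Oas1a, Oasl2, Mx1, Mx2, Gbp2, Gbp3 and Ciita, beside Usp18, Zbp1 and Stat2. Probe sets of these 12 genes lay between 0.2 and 21.0 in every array, and 9 of the 12 had a lower KO mean at the brightest one. Ifit2 went the other way, with 0.9, 0.3 and 0.4 in WT and 0.5, 7.9 and 10.6 in KO. KO replicates 2 and 3 were above the WT arrays there and KO replicate 1 was not (adjusted p = 0.616). Mx2, a dynamin-like GTPase, was near 0 in every array (1.0 to 3.0). The OAS genes, whose products sense double-stranded RNA, peaked in WT replicate 1, at 19.4 for Oas1a and 9.3 for Oasl2, and both overlapped between the groups.

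**Figure D2:**
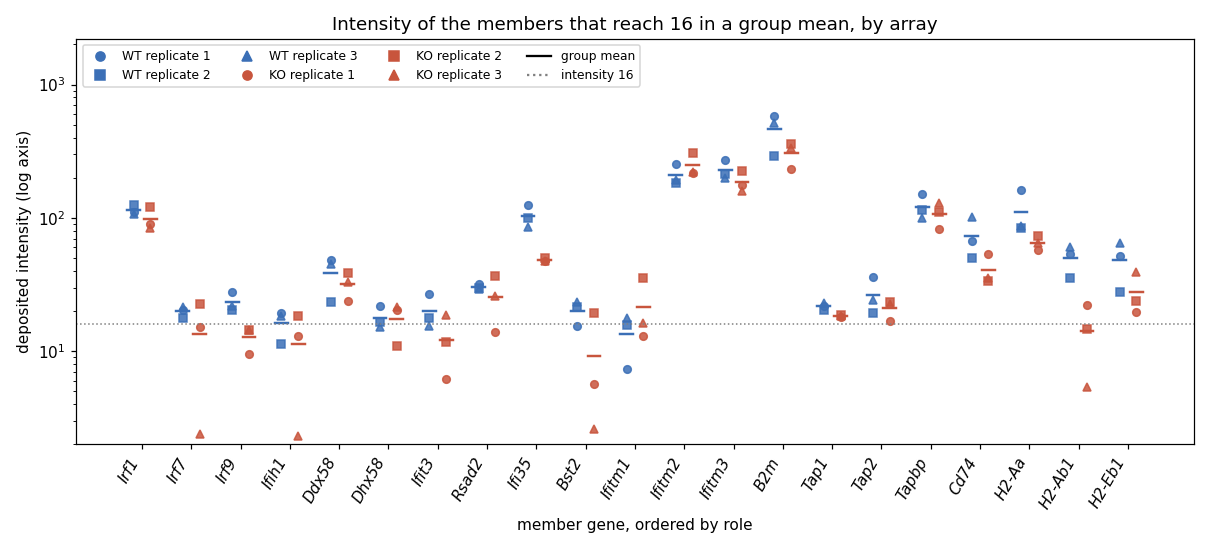
Deposited intensity, on a log axis, of the 21 members that reach 16 in a group mean, for each array (symbols) with the group mean (line). For Ifi35, H2-Aa, H2-Ab1, Irf9 and Tap1 the 3 KO points lie below the 3 WT points, while for Ifitm1 and Ifitm2 the KO mean is the higher one.

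Membrane and GTPase effectors had KO means on both sides of WT, and none passed the test. The IFITM proteins sit in membranes and hinder virus entry. Ifitm2 read 255.1, 181.2 and 191.8 in WT and 215.6, 306.9 and 219.4 in KO. KO replicate 2 was the highest array and WT replicate 1 the next (fold 1.17, interval 0.846 to 1.61, adjusted p = 0.805). Ifitm3 read 270.3, 214.1 and 197.9 against 175.4, 223.5 and 157.9. Here KO replicates 1 and 3 were below all WT arrays and KO replicate 2 was not (fold 0.827, interval 0.616 to 1.11, adjusted p = 0.717). Ifitm1 was near the floor, with 7.3, 15.6 and 17.7 against 13, 35.1 and 16.3 (fold 1.24, adjusted p = 0.780). Its high KO mean rested on KO replicate 2. The difference between these family members was not tested.

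Bst2, the tether that holds budding virus on the cell surface, read 15.4, 21.6 and 23.5 in WT and 5.7, 19.5 and 2.6 in KO. KO replicates 1 and 3 were low and KO replicate 2 lay within the WT range. The fold was 0.675, interval 0.444 to 1.02 (adjusted p = 0.599). The guanylate-binding proteins, which attack the vacuoles of intracellular microbes, were dim. Gbp2 read 21.0, 9.6 and 11.4 against 9.5, 10.5 and 3.2, and Gbp3 lay between 5.6 and 12.1 in all arrays.

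The 4 members of the MHC class I pathway had lower KO means, with small changes and a median of -0.18 (log2). B2m, the constant light chain of class I molecules, read 577.1, 292.3 and 515.5 in WT and 231.0, 357.5 and 336.3 in KO at 1452428_a_at. WT replicates 1 and 3 were above every KO array, but WT replicate 2 lay among the KO values. The mean was 462 ± 150 in WT and 308 ± 67.7 in KO (n = 3 each), with fold 0.694 and interval 0.432 to 1.11 (adjusted p = 0.657). The log2 change of -0.53 became -0.34 without WT replicate 1, -0.34 without KO replicate 1 and -0.82 without WT replicate 2. Its second probe set, 1449289_a_at, read 311.0, 211.9 and 289.6 against 155.2, 261.6 and 227.3, with the same array order (adjusted p = 0.739).

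Tap1 and Tap2 form the pump that brings peptides into the endoplasmic reticulum. Tap1 read 21.8, 20.5 and 22.8 in WT and 18.0, 18.8 and 18.4 in KO. The groups did not overlap, yet the change was small, with a fold of 0.913 and an interval of 0.762 to 1.09 (adjusted p = 0.791). Tap2 read 36.0, 19.5 and 24.3 against 16.8, 23.4 and 22.6, and the groups overlapped (adjusted p = 0.816). Tapbp, the tapasin that loads peptides onto class I, read 150.4, 114.2 and 99.3 against 82.1, 110.9 and 128.5. KO replicate 3 was the second highest array, and the fold was 0.896, interval 0.640 to 1.26 (adjusted p = 0.881).

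The MHC class II members had lower means in KO without exception, with a median change of -0.60 (log2) over the 5 genes. H2-Ab1, the beta chain of the I-A molecule, read 53.7, 35.2 and 60 in WT and 22.1, 14.8 and 5.4 in KO at 1450648_s_at. The KO values were all below the lowest WT array, and 2 of the 3 were below 16. The mean was 49.6 ± 12.9 in WT and 14.1 ± 8.37 in KO (n = 3 each), with fold 0.452 and interval 0.298 to 0.687 (adjusted p = 0.511, unadjusted p = 0.00295). In the refit above the median level its adjusted p was 0.0810, and it passed there without KO replicate 1 (adjusted p = 0.00477). High WT values raised its mean in that filter too, so this pass is no separate support for a difference. The other H2-Ab1 probe sets were below 16 in both means. At 1451721_a_at the groups overlapped, with 17.2, 12.1 and 14.6 against 8.7, 13.8 and 8.2 (fold 0.855, adjusted p = 0.699). At 1425477_x_at they did not, with KO lower (fold 0.742, adjusted p = 0.579). With the mean of all 3 probe sets the log2 change was -0.60 in place of -1.14.

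H2-Aa, the alpha chain of I-A, read 161.6, 84.6 and 87.5 in WT and 57.2, 72.8 and 65.0 in KO at 1438858_x_at. The groups did not overlap, and WT replicate 1 stood far above the other WT arrays. The fold was 0.658, interval 0.443 to 0.977 (adjusted p = 0.574), and the log2 change of -0.60 became -0.34 without WT replicate 1. At 1435290_x_at the values were 73.2, 47.5 and 96.4 against 29.8, 37.6 and 46.9, and at 1452431_s_at 13.8, 18.3 and 34.4 against 3.1, 9.6 and 10.9. The fourth probe set, 1443783_x_at, stayed between 0.3 and 6.8. Both brighter ones also kept the groups apart, and in these the highest array was WT replicate 3 rather than WT replicate 1. Their folds were 0.624 and 0.634 (adjusted p = 0.562 and 0.563).

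H2-Eb1, the beta chain of the I-E molecule, read 51.9, 28.0 and 64.6 in WT and 19.7, 23.9 and 39.2 in KO. KO replicate 3 was above WT replicate 2, so the groups overlapped (fold 0.689, interval 0.442 to 1.07, adjusted p = 0.633). The log2 change of -0.54 was -0.35 without WT replicate 3. Cd74, the invariant chain that guides class II molecules to the endosome, read 67.1, 49.7 and 101.4 against 53.8, 33.7 and 35.2. Only KO replicate 1 reached into the WT range (fold 0.652, interval 0.434 to 0.980, adjusted p = 0.576). The log2 change of Cd74, -0.62 with all arrays, was -0.39 without WT replicate 3. Ciita, the master activator of class II genes, was below 16 in both means, with 11.4, 13.8 and 15 in WT and 10.5, 11.3 and 4.9 in KO. The groups of Ciita did not overlap, though the highest KO value came close to the lowest WT value (adjusted p = 0.688).

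**Figure D3:**
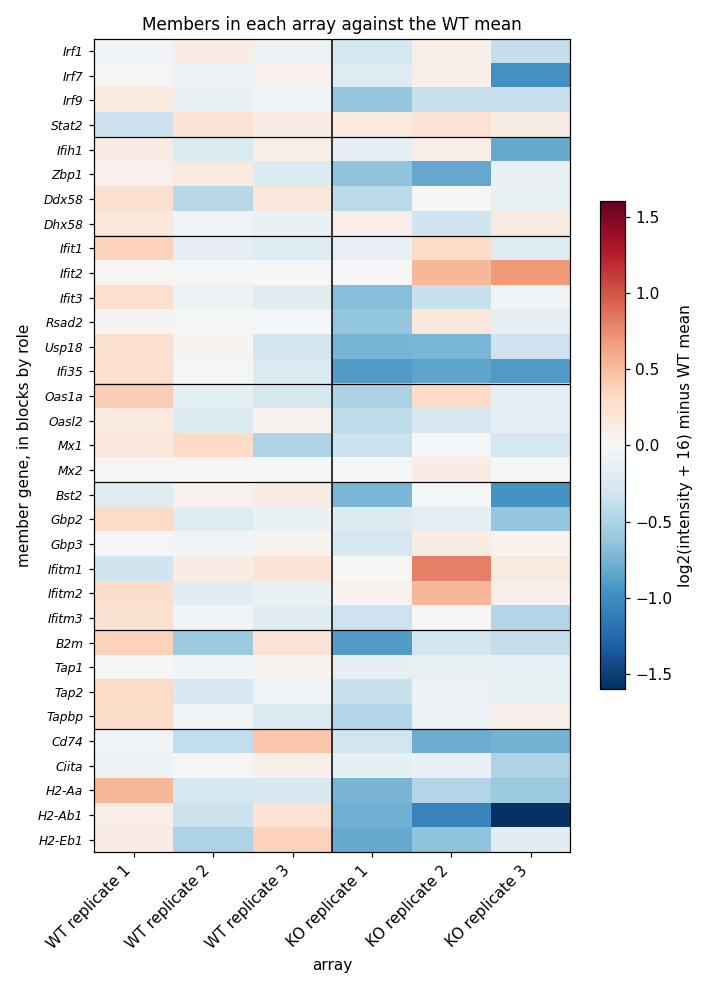
Each of the 33 members in each array as log2(intensity + 16) minus the WT mean, in blocks by role from transcription factors (top) to MHC class II genes (bottom). The class II block is blue in all KO columns, deepest for H2-Ab1 in KO replicate 3, and Ifi35 is blue in all 3, while Ifitm1, Ifitm2 and Ifit2 turn red in KO replicate 2.

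Array by array, the median of the class II genes was low in the KO-labelled arrays, though the lowest array differed from gene to gene. The median distance of the class II genes from the WT mean (log2) was 0.11, -0.34 and 0.23 in WT replicates 1, 2 and 3. In the KO-labelled arrays it was -0.75, -0.64 and -0.60. All 3 KO medians were thus below the lowest WT median, which was that of WT replicate 2. For the class I members the medians were 0.30, -0.15 and -0.01 in WT and -0.41, -0.11 and -0.13 in KO, and the groups overlapped. For the transcription factors they were -0.01, 0.02 and 0.01 against -0.24, 0.09 and -0.38, with KO replicate 2 above every WT array. Over all genes the array medians lay between -0.14 and 0.15. With each array centred on its median the change was -0.58 for H2-Aa, -1.12 for H2-Ab1 and -0.86 for Ifi35.

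Markers of the cells that carry class II molecules overlapped between the groups in their summed intensity. Of 14 macrophage markers 6 had a higher and 8 a lower KO mean, and their summed intensity ranged from 516.5 to 844.5 in WT and from 493.1 to 756.3 in KO. Mrc1, a mannose receptor of tissue macrophages, read 103.5, 52.6 and 84.5 against 45.6, 53.3 and 19.9, whereas Cd163, a haemoglobin scavenger receptor, read 13.7, 10.3 and 11.6 against 30.2, 55.6 and 24.8. The 8 measured dendritic cell markers summed to between 106.6 and 155.3 in WT and between 93.10 and 118.4 in KO, 4 of them reached 16, and 3 had a higher and 5 a lower KO mean. Clec10a kept the groups apart with KO lower, at 19.9, 19.3 and 21.2 against 7.0, 12.2 and 14.9, and Ccr7 with KO higher but near 0, at 0.5, 0.8 and 0.4 against 3.7, 1.0 and 1.8. B cell markers (5 measured) summed to 53.50 to 90.80 and 67.00 to 82.60 in the same order. At their brightest probe sets the defining T cell genes Cd3d, Cd3e and Cd4 lay between 0.7 and 10.5 in all 6 arrays. General leukocyte markers (5 measured) summed to 88.30 to 108.2 in WT and 81.30 to 93.20 in KO, and Ptprc, the CD45 gene of all leukocytes, was between 4.9 and 14.6. The part of any of these cells in the class II values was not tested.

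**Figure D4:**
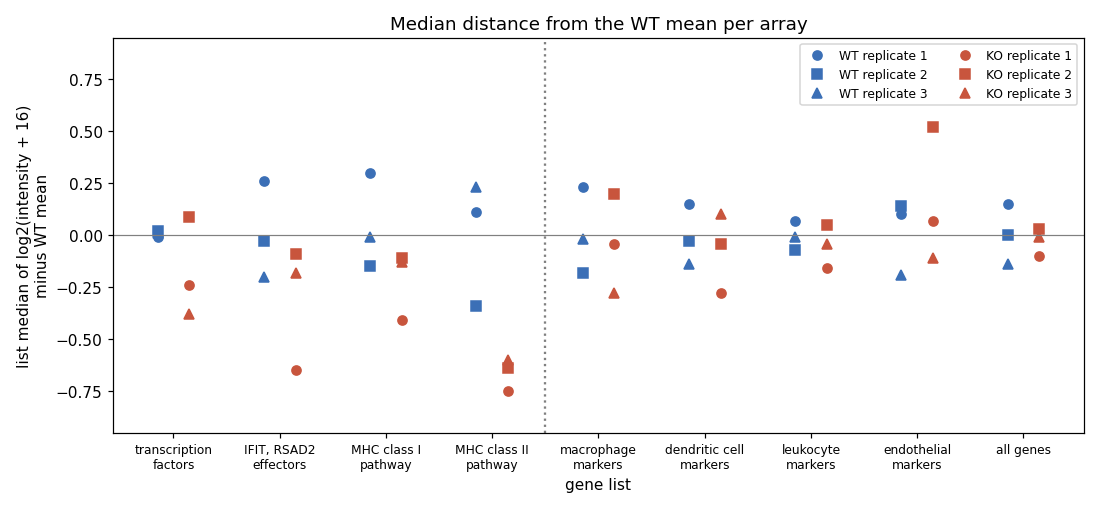
Median over each gene list of log2(intensity + 16) minus the WT mean, per array (WT blue, KO red). The class II members lie between -0.75 and -0.60 in the KO arrays and between -0.34 and 0.23 in the WT arrays, while the groups overlap for macrophage, dendritic cell, leukocyte and endothelial markers and for all genes.

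Other genes of the pathway, taken from lists by role, were measured for 98 genes, and 0 passed over all probe sets. Their median change was -0.10 (log2), 65 had a lower and 33 a higher KO mean, and the groups did not overlap in 15 that were lower (8.34% of all genes) and 1 that was higher (4.51% of all genes). Of 8 interferon receptors and kinases 4 had a higher and 4 a lower KO mean, with a median of 0.01. Jak1, a kinase of both receptor types, read 554.5, 496.6 and 400.1 against 350.6, 357.7 and 352.5 and kept the groups apart with KO lower at all 3 of its probe sets (fold 0.746, interval 0.583 to 0.953, adjusted p = 0.562). Jak2, a kinase of the interferon gamma receptor, overlapped at its brightest probe set (fold 0.956), while 1421065_at read 48.6, 61.6 and 42.7 against 31.8, 20.7 and 30.1 (fold 0.650, interval 0.493 to 0.858, adjusted p = 0.524). STAT and IRF factors had 4 of 6 higher and a median of 0.04, and adaptors of the sensors 5 of 9 higher and a median of 0.02. Of 6 measured interferon ligands 2 reached 16, and their median change was near 0. Further interferon-stimulated genes had 36 of 44 lower KO means and a median of -0.14, and 9 of the 44 kept the groups apart, all with KO lower, to be read against the same 8.34%. Other class I pathway genes had 7 of 9 lower and a median of -0.41, and other class II pathway genes 5 of 10 lower and a median of -0.01.

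The widest changes in these lists were downward for Ifi27l2a and Ifi27 and upward for Ctsl and Tbk1. Ifi27l2a, an interferon-induced mitochondrial protein, read 82.1, 40.4 and 43.9 in WT and 4.4, 12.2 and 2.5 in KO. Every KO value was below 16 and every WT value well above it (fold 0.318, interval 0.206 to 0.491, adjusted p = 0.380). In the refit above the median level the adjusted p of Ifi27l2a was 0.0143. High WT values carried Ifi27l2a through that filter on the mean of all arrays, so the call is no separate support for a difference. Ifi27, of the same family, read 441.1, 348.2 and 333.8 against 198.9, 181.2 and 149.3, again without overlap (fold 0.494, interval 0.376 to 0.649, adjusted p = 0.380). Ctsl, a lysosomal protease that also trims the invariant chain, read 616.1, 474.7 and 439.1 against 655.2, 2129.5 and 4206.0. KO replicate 1 was close to the WT arrays and the other two far above them (fold 3.51, adjusted p = 0.561). Tbk1, the kinase that activates IRF3, read 54.1, 47.7 and 35.8 against 44.7, 98.4 and 222.6, with KO replicate 1 inside the WT range (fold 1.93, adjusted p = 0.622). The log2 change of Tbk1 was 0.44 without KO replicate 3, and that of Ctsl was 1.20. With the mean of all probe sets of the gene it was 0.97 for Ctsl in place of 1.81, and 0.73 for Tbk1 in place of 0.95.

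Where a member had several probe sets, they mostly pointed one way. Of 13 such genes 8 had all probe sets in the direction of the brightest, and in the other 5 each probe set that went the other way was below 16 in both group means. Of the 56 probe sets 13 kept the groups apart with KO lower (7.29% of all probe sets) and 0 with KO higher (5.02% of all probe sets). Probe sets of 1 gene read the same RNA and are not independent. The MHC genes are polymorphic and similar to each other, and the _x_at and _s_at probe sets of H2-Aa and H2-Ab1 could read RNA of related genes. A probe set shared by Isg15 and a second gene symbol, 1431591_s_at, read 28.9, 9.5 and 18.3 in WT and 11.5, 12.1 and 10.1 in KO, with overlapping groups (adjusted p = 0.721), and is not counted among the members.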

How the data were processed

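RNA from muscle of 6 mice was prepared with TriPure and biotin-labelled, per the labels' protocols. The authors deposited 1 linear intensity per probe set and array, and their software, scaling and background correction are, in the sources used here, not given. Of 45101 probe sets 64 controls were left out, and 0 columns were unused. Intensities were taken as log2(value + 16) without further normalization, so fold changes of dim probe sets are understated. Differences were tested with limma 3.58.1 in R 4.3.3 (lmFit and eBayes, two-sided) over 45037 probe sets, with 95% intervals, and the fit was checked on simulated data. The number of arrays limits the precision. Names came from the platform annotation: 34945 probe sets had 1 symbol, 932 several and 9160 were not listed. Each gene was read at its brightest probe set by mean. Every member was named, and of other pathway genes the 2 with the largest change each way among those reaching 16. Markers, kinases and arrays outside that rule were named after their values were seen. Members and lists were chosen with earlier results of these data known. Alternatives were quantile normalization, median centring, offsets of 1 and 64, the median-level filter, a trended and robust variance, the replicate block, each array left out, a threshold of 0.01 and averaging the probe sets of a gene. The filter combined with leaving out arrays was chosen after seeing the data.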

Additional observations from a re-analysis of the deposited data

How the results depend on the processing

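The count over all probe sets, 4, was 9 with quantile normalization, 11 with median centring, 1 with an offset of 64, 79 with the median-level filter, 15 with a trended and robust variance, 2 at a threshold of 0.01, and 1 to 6 with each array left out. The count of member probe sets was 0 in all of these but the filter, where it was 1, and 0 to 2 with an array left out as well. The members' median change of -0.25 was -0.41 with an offset of 1 and -0.10 with 64, and that of the antigen presentation members, -0.53, was -0.28 with an offset of 64 and -0.75 to -0.34 with each array left out. The number of non-overlapping members, 7, became 9 to 14 with 1 array fewer, of which 2 were higher in KO without WT replicate 1 and 1 without KO replicate 1, while the share of all genes with KO lower went from 8.34% to between 10.2% and 19.1%. The direction held for 19 of the 21 members that reached 16 under the 14 alternatives. The median-level filter, the trended and robust variance and the replicate block leave the log2 change as it is, so they could not turn a direction. Averaging probe sets likewise changes nothing for a gene with 1 probe set. Dhx58 turned to 0.01 with quantile normalization and ranged from -0.11 to 0.12 with arrays left out, and Rsad2 from -0.38 to 0.02. Replicate numbers did not pair the mice (correlations of same-numbered deviations -0.06, 0.03 and -0.06), and the replicate block gave 0 calls over all probe sets, with 3367 at an unadjusted p under 0.05, and 0 of the members. Levels below 16 in both group means limit 12 of the 33 genes. Several of the other 21 also lay near 16, such as Ifih1 (means 16.3 in WT, 11.3 in KO) and Dhx58 (17.9 and 17.5). Causes were not tested.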
